A study of Mus musculus with 8 samples.

Results

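The activin, inhibin, follistatin and anti-Müllerian hormone (AMH) system was followed through 10 genes in ovaries of obese lethal yellow (LY) mice. The genes were chosen by name, as every probe whose platform gene symbol was Inha, Inhba, Inhbb, Fst, Fstl3, Acvr1b, Acvr2a, Acvr2b, Amh or Amhr2, which gave 12 probes for these 10 of 18069 named genes on the array. Inhbb and Fstl3 had 2 probes each and the other 8 genes had 1. Ovarian RNA was hybridised to CodeLink whole mouse genome arrays, with 1 ovary and 1 array per mouse and 8 arrays in all. The treated group was 4 female heterozygous C57BL/6J Ay/a mice that received 0.1 mg pioglitazone in DMSO per day according to the labels, while the methods of the study give a lower daily dose. The control group was 4 female Ay/a mice given the DMSO vehicle alone. Both groups were dosed by mouth for 60 days, from 120 to 180 days of age, and killed after an overnight fast. All 8 mice carried the Ay allele, lean mice were not analysed here, and the sources used here name no stage of the estrous cycle.

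Activins are dimers of the beta subunits encoded by Inhba and Inhbb. Inhibins pair a beta subunit with the alpha subunit encoded by Inha, and the granulosa cells of growing follicles make both hormones. Activin binds a type II receptor (Acvr2a or Acvr2b), which recruits the type I receptor encoded by Acvr1b and signals through Smad2 and Smad3. Inhibin competes for the type II receptors, and follistatin (Fst) and follistatin-like 3 (Fstl3) bind activin outside the cell. AMH, a hormone of small growing follicles that restrains recruitment of primordial follicles, acts through its own type II receptor, encoded by Amhr2.

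Values are relative intensity units, that is, background-corrected linear intensities divided by the median of each array, with 0.2 units as the limit of sensitivity. Levels of different probes cannot be ranked against each other, since probes differ in how well they bind. Across the 36227 probes, 47 to 211 spots per array were missing and 82.7% to 84.0% of the others reached 0.2. Of the markers in 6 cell type lists 0 lay under 0.2 in all 8 arrays, and the oocyte list (12 markers) summed to between 92.1 and 149.5 units in pioglitazone-treated mice and between 93.0 and 137.5 in vehicle-treated mice. In that list Bmp15 had values in pioglitazone mice 3 and 4 only, was missing elsewhere, and entered the sums of those arrays alone. Pioglitazone mouse 1 stood apart in adipocyte markers, whose sum was 130.6 there, between 20.7 and 40.3 in the other pioglitazone-treated mice, and between 32.2 and 72.2 in vehicle-treated mice. In whole ovary, fewer cells of a type and less RNA per cell cannot be told apart. With 4 arrays in each group, precision is limited by that number.

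Of the 12 probes, 10 probes of 9 genes reached a group mean of 0.2 in either group and were tested with limma among 30634 probes. At unadjusted p under 0.05 limma called 2 of these 10, Acvr2a (lower with pioglitazone) and Fst (higher). The background share of all probes called at that level was 5.50%, or 1.97% higher and 3.53% lower, from 603 higher and 1082 lower probes. Under quantile normalization 691 were higher against 799 lower, and under cyclic loess 723 against 823. After Benjamini-Hochberg adjustment limma called 0 probes of the array, members included, and the smallest adjusted p was 0.599. The log2 fold change was positive in 7 and negative in 3 of the 10 member probes tested, and its median was 0.073, against -0.034 over all probes tested.

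**Figure D1:**
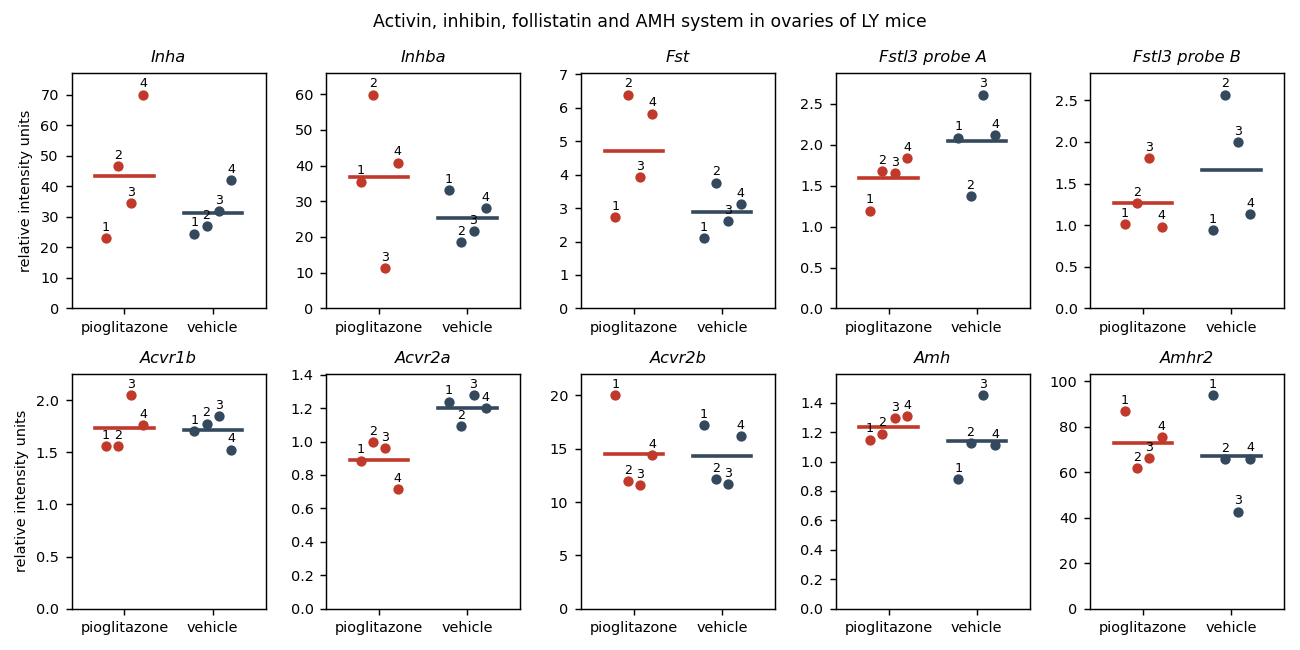
Relative intensity units (linear axes from 0) of the 10 tested probes by mouse, pioglitazone-treated LY mice on the left and vehicle-treated on the right. Each point is 1 mouse, labelled by replicate number, and horizontal lines are group means (n = 4 each). For Acvr2a all 4 pioglitazone values (0.717 to 0.998) lay under all 4 vehicle values (1.09 to 1.28), while the groups overlapped in the other 9 probes.

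Of the 3 activin receptor genes among the members, Acvr2a was the 1 called lower in pioglitazone-treated ovaries at unadjusted p under 0.05 (limma). Acvr2a encodes a type II receptor that binds activins, inhibin and several bone morphogenetic proteins. Its values were 0.886, 0.998, 0.961 and 0.717 in pioglitazone mice 1 to 4, against 1.24, 1.09, 1.28 and 1.20 in vehicle mice 1 to 4. The highest pioglitazone value (mouse 2) was thus under the lowest vehicle value (also mouse 2), and Acvr2a was the 1 tested member probe of 10 without overlap, which 4.59% of all tested probes showed (1.46% higher and 3.13% lower). The means were 0.890 ± 0.125 in pioglitazone-treated and 1.20 ± 0.08 in vehicle-treated mice (SD, n = 4 each), and their ratio was 0.740. In limma the log2 fold change was -0.44 (standard error 0.15, 95% interval -0.78 to -0.11). Its limma p was 0.0150 before and 0.837 after adjustment, and the two-sided exact permutation p was 0.0286, the smallest that 4 against 4 mice can give. Acvr2a kept an unadjusted p under 0.05 in all 17 other settings, each mouse left out in turn included, with log2 fold changes from -0.50 to -0.34.

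Acvr2b encodes the other activin type II receptor. It had values of 20.1, 12.0, 11.6 and 14.4 in pioglitazone mice 1 to 4, against 17.3, 12.1, 11.7 and 16.2 in vehicle mice 1 to 4. In both groups mice 1 and 4 were higher than mice 2 and 3, and the pioglitazone range covered the vehicle range. The means were 14.5 ± 3.9 in pioglitazone-treated and 14.3 ± 2.8 in vehicle-treated mice (SD, n = 4 each), and the 95% interval of the limma log2 fold change ran from -0.49 to 0.49. Acvr1b, the type I receptor gene, ranged from 1.56 to 2.05 in pioglitazone-treated and from 1.52 to 1.85 in vehicle-treated mice. Its log2 fold change was 0.012 (limma, 95% interval -0.32 to 0.34). With 1 mouse left out the sign of Acvr2b changed in 4 of 8 fits and that of Acvr1b in 2 of 8, so neither has a direction. Whether Acvr2a differed from Acvr2b in its response was not tested.

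RefSeq (GRCm38.p6) holds a promoter window around a start site for 8 of the 10 genes, all but Fst and Amh. The windows of Inha, Inhba, Acvr2b and Amhr2 lie wholly downstream of the annotated start of the gene (chr1:75507077 for Inha) and do not cover it. The window of Acvr2a is shown because its groups did not overlap. That of Inha is shown because Inha and Fst had the highest correlation of the member pairs, which did not pass after adjustment (given later). Capitals mark AGGTCA, the core site of many nuclear receptors, and CAGAC, a short element bound by SMAD proteins, searched on both strands.
Acvr2a (chr2:48813859-48814158, + strand): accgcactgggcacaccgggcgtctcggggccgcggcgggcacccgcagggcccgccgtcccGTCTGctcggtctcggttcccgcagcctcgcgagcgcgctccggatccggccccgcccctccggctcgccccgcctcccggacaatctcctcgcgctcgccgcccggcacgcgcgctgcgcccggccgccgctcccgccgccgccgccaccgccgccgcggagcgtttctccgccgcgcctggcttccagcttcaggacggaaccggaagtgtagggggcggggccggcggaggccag
Inha (chr1:75507359-75507658, + strand): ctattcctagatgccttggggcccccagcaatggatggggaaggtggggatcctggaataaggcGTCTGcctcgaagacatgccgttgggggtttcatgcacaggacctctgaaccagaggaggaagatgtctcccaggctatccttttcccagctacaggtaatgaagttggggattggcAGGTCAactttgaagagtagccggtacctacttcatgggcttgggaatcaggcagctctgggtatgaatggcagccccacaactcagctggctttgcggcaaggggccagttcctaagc
AGGTCA was found in 3 of the 8 member promoters (Inha, Fstl3 and Amhr2) and in 16.0% of 27025 promoters, and CAGAC in 4 of 8 (Inha, Fstl3, Acvr2a and Acvr2b) and in 49.7%. The direct repeat bound by PPARγ with its partner RXR, 2 copies of AGGTCA with 1 base between them, was found in 0 of 8 and in 0.0444% of promoters. A longer palindrome bound by SMAD proteins, GTCTAGAC, which does not contain the letters CAGAC on either strand, was found in 0 of 8 and in 0.211%. The full cAMP response element TGACGTCA was found in 0 of 8 and in 1.88%. These matches are descriptions of the letters in these windows.

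Fst, the gene of follistatin, was higher in pioglitazone-treated ovaries. It had values of 2.73, 6.39, 3.92 and 5.82 in pioglitazone mice 1 to 4, against 2.10, 3.76, 2.62 and 3.11 in vehicle mice 1 to 4. Pioglitazone mice 2, 3 and 4 lay above all vehicle values, while pioglitazone mouse 1 lay under vehicle mice 2 and 4, so the groups overlapped. The means were 4.72 ± 1.69 in pioglitazone-treated and 2.90 ± 0.71 in vehicle-treated mice (SD, n = 4 each), and their ratio was 1.63. In limma the log2 fold change was 0.66 (standard error 0.29, p = 0.0494, adjusted p = 0.837) and the two-sided exact permutation p was 0.114. This call lies at the threshold: it was lost in 10 of 17 other settings, among them those without vehicle mouse 1, 3 or 4 (log2 fold changes of 0.51, 0.62 and 0.70) and without pioglitazone mouse 2, 3 or 4 (0.49, 0.72 and 0.53). Fst was positive in all 17.

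The labels do not pair the mice. Replicate numbers were taken as pairs from these same data, since same-numbered arrays correlated (0.181 to 0.515). Pioglitazone mouse 3 correlated better with vehicle mouse 2 (0.369) than with vehicle mouse 3 (0.274), so the pairing is uncertain, and so are the results that use it. Within these assumed pairs Fst was steadier. The ratio of pioglitazone to vehicle was 1.30, 1.70, 1.50 and 1.87 in pairs 1 to 4, higher in 4 of 4 pairs. Among all tested probes 7.53% were higher in 4 of 4 pairs and 12.8% were lower in 4 of 4. With the replicate number as a block the standard error of Fst fell to 0.15, against 0.29 without it, and the limma p was 0.00298 (adjusted p = 0.575). Acvr2a was lower in 4 of 4 pairs, with ratios of 0.715, 0.914, 0.751 and 0.598, and its p with the block was 0.0227 (limma, adjusted p = 0.575). The block called 8.60% of all probes and the same 2 member probes. The plot of ratios by pair shows that no other tested member probe kept 1 side in all 4 pairs.

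**Figure D2:**
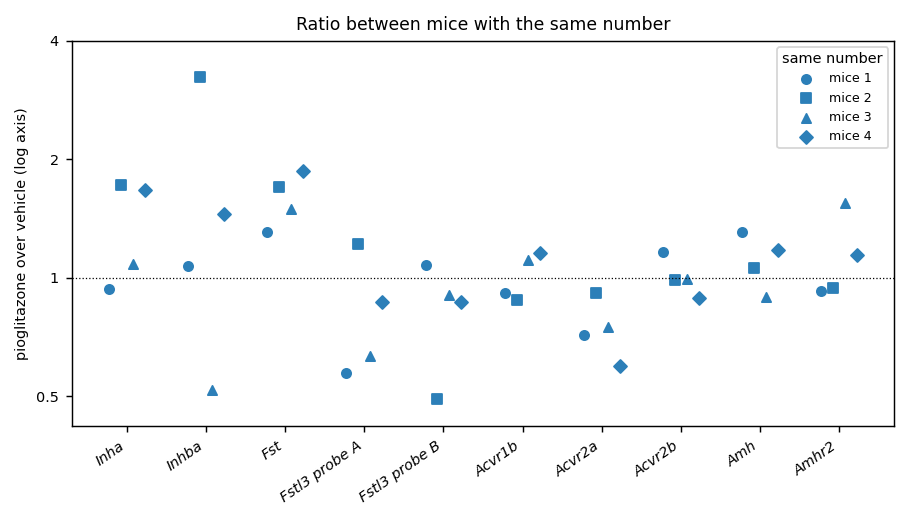
Ratio of pioglitazone to vehicle (log axis) between mice with the same replicate number, for the 10 tested probes. Each point is 1 pair and the dotted line marks no difference; all 4 points of Fst lie above it (1.30 to 1.87), all 4 of Acvr2a lie under it (0.598 to 0.914), and those of Inhba run from 0.519 to 3.23.

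Fstl3, the relative of follistatin that also binds activin, was negative in log2 fold change in both probes. Its brighter probe, A, had values of 1.20, 1.68, 1.66 and 1.84 in pioglitazone mice 1 to 4, against 2.09, 1.38, 2.61 and 2.12 in vehicle mice 1 to 4. All pioglitazone values lay under 3 of the 4 vehicle values, and vehicle mouse 2 lay low. The log2 fold change of probe A was -0.34 (limma, standard error 0.22, adjusted p = 0.857), and without vehicle mouse 2 it was -0.52 and passed the unadjusted threshold. Without pioglitazone mouse 1 or vehicle mouse 3 it was -0.21 or -0.22, so the size of this change rests on single mice. Probe B averaged 1.27 ± 0.38 in pioglitazone-treated and 1.66 ± 0.76 in vehicle-treated mice (SD, n = 4 each), with a log2 fold change of -0.32 (limma, adjusted p = 0.891), and its value was -0.068 without vehicle mouse 2, the mouse whose omission enlarged probe A, and ran down to -0.55 without vehicle mouse 1. The 2 probes differed in pattern: probe B was highest in mice 2 and 3 of each group, while vehicle mouse 2 had the highest value of probe B and the lowest vehicle value of probe A.

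Neither of the ligand subunits with a measurable level passed the test, and their intervals are wide. Inha, the alpha subunit that makes inhibin, had values of 23.0, 46.6, 34.4 and 70.0 in pioglitazone mice 1 to 4, against 24.5, 27.0, 31.8 and 42.0 in vehicle mice 1 to 4. Mouse 4 was the highest and mouse 1 the lowest in both groups, and the groups overlapped. The means were 43.5 ± 20.1 in pioglitazone-treated and 31.3 ± 7.7 in vehicle-treated mice (SD, n = 4 each), with a log2 fold change of 0.39 (limma, 95% interval -0.35 to 1.12, adjusted p = 0.876). It was 0.12 without pioglitazone mouse 4, and 0.65, past the unadjusted threshold, without pioglitazone mouse 1.

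Inhba, the beta subunit of activin A and inhibin A, had the highest ratio of highest to lowest value of the tested members. It had values of 35.5, 59.8, 11.2 and 40.8 in pioglitazone mice 1 to 4, against 33.1, 18.5, 21.6 and 28.1 in vehicle mice 1 to 4. Pioglitazone mouse 3 held the lowest value of all 8 and pioglitazone mouse 2 the highest, 5.33 times as high. The coefficient of variation was 54.3% in pioglitazone-treated and 25.8% in vehicle-treated mice, where Amhr2 (31.2%) and Fstl3 probe B (45.7%) varied more, and the log2 fold change was 0.35 (limma, 95% interval -0.69 to 1.38, adjusted p = 0.910). It was 0.036 without pioglitazone mouse 2, and 0.84, past the unadjusted threshold, without pioglitazone mouse 3, so that either mouse alone moves this value, in opposite directions.

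Inhbb, the beta subunit of activin B and inhibin B, could not be compared. Its brighter probe ran from 0.064 to 0.172 in pioglitazone-treated and from 0.021 to 0.149 in vehicle-treated mice, and the other probe from 0.065 to 0.088 in pioglitazone-treated and from -0.0018 to 0.132 in vehicle-treated mice. All values of both probes lay under the limit of 0.2, so no fold is given.

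Amh ranged from 1.15 to 1.31 in pioglitazone-treated and from 0.879 to 1.45 in vehicle-treated mice. Both the lowest and the highest value were those of vehicle mice, 1 and 3. Its log2 fold change was 0.13 (limma, 95% interval -0.25 to 0.52, adjusted p = 0.908), with coefficients of variation of 6.35% in pioglitazone-treated and 20.6% in vehicle-treated mice. It was 0.016 without vehicle mouse 1 and 0.26 without vehicle mouse 3. Amhr2, the AMH receptor gene, had values of 87.0, 62.0, 66.1 and 75.5 in pioglitazone mice 1 to 4, against 94.0, 65.9, 42.7 and 66.0 in vehicle mice 1 to 4. Mouse 1 was the highest in both groups and vehicle mouse 3 the lowest of all. The log2 fold change of Amhr2 was 0.16 (limma, 95% interval -0.38 to 0.69, adjusted p = 0.924), and it was -0.043 without vehicle mouse 3, 0.065 without pioglitazone mouse 1 and 0.34 without vehicle mouse 1.

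**Figure D3:**
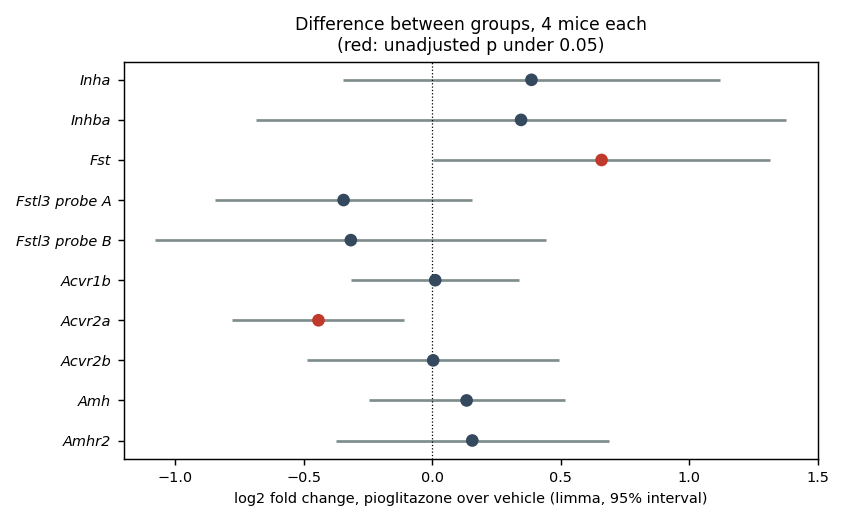
Log2 fold change of pioglitazone over vehicle for the 10 tested probes, with 95% intervals from limma (n = 4 mice per group) and in red the probes at unadjusted p under 0.05. The intervals of Acvr2a (-0.78 to -0.11) and Fst (0.002 to 1.32) leave 0 on 1 side, and the other 8 include it.

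Within each array, 4 differences between members were formed, in which an array-wide scale cancels, and tested between groups. Fst minus Fstl3 (probe A) was 1.19, 1.93, 1.24 and 1.66 in pioglitazone mice 1 to 4, against 0.0059, 1.45, 0.0047 and 0.55 in vehicle mice 1 to 4, on the log2 scale. It was higher in 4 of 4 pairs and differed by 1.00 between the group means (two-sided exact permutation p = 0.0857, adjusted over the 4 differences p = 0.343). Only vehicle mouse 2 reached into the pioglitazone range, and leaving out this mouse, chosen after its value was seen, parts the groups by construction, with a difference of 1.32. With any other mouse left out the difference ran from 0.84 to 1.11 (exact permutation p from 0.0857 to 0.114). Inhba minus Fst, the ligand subunit against its antagonist, differed by -0.31 (exact permutation p = 0.600, adjusted p = 0.876). Inha minus Inhba differed by 0.040 (exact permutation p = 0.886). The fourth difference, Inha minus Inhbb, is not given, since Inhbb lay under the limit and the floor sets its value.

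Across the 8 mice the log2 values of members were compared in 45 pairs of genes, each by its brighter probe. Fst and Inha had the highest correlation, with Pearson's r = 0.78 (exact permutation p = 0.0211) and Spearman's rho = 0.76 (exact permutation p = 0.0368). Adjusted over the 45 pairs these p-values were 0.403 and 0.721 (permutation). With the group means removed r was 0.76, and without the 2 mice farthest from the median of Inha it was 0.70 (exact permutation p = 0.108). Inhba with Acvr1b had r = -0.77 and rho = -0.62 (exact permutation p = 0.0241 and 0.115), and r was -0.40 without the 2 mice farthest from the median of Inhba (exact permutation p = 0.425). Amh with Amhr2 had r = -0.75 and rho = -0.45 (exact permutation p = 0.0415 and 0.267), and r was 0.048 without the 2 mice farthest from the median of Amh, so this relation rested on those mice. After adjustment 0 of the 45 pairs passed, and 4 passed unadjusted. The fourth was Acvr2b with Amhr2, with r = 0.75 and rho = 0.69 (exact permutation p = 0.0269 and 0.0694). Acvr2b divides the mice into 2 sets (given next), so this coefficient does not show a relation within either set. These p-values treat the 8 mice as exchangeable, which they are not if the replicate numbers pair them.

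**Figure D4:**
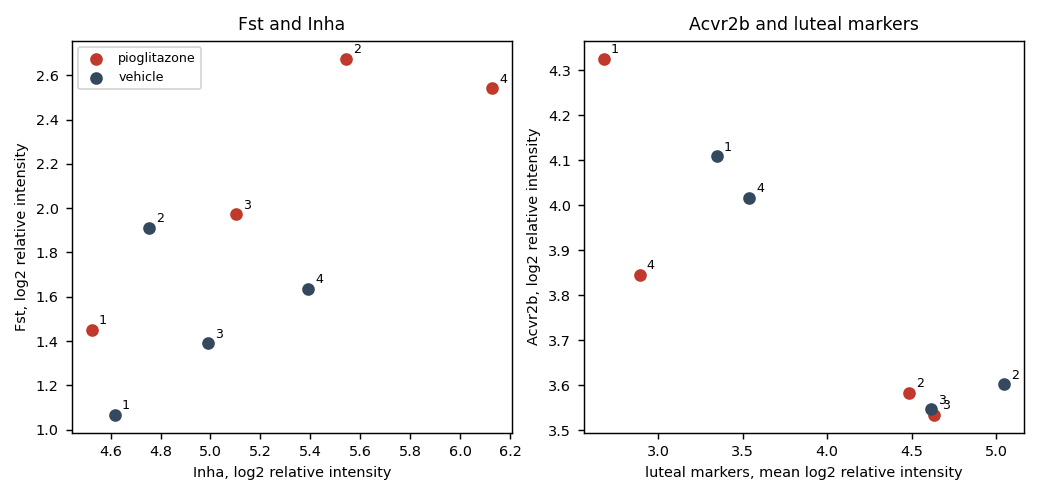
Log2 relative intensity of Fst against Inha (left) and of Acvr2b against the mean of 9 luteal markers (right), with 1 point per mouse and its replicate number. Fst and Inha had r = 0.78 over 8 mice (exact permutation p adjusted over 45 pairs = 0.403). Acvr2b and the luteal markers had r = -0.88 (exact permutation p adjusted over 10 members = 0.0913). Acvr2b was higher in mice 1 and 4 of both groups, which had the lower luteal levels.

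Acvr2b, which had the strongest correlation with the luteal markers of the 10 members, divided the mice as these markers did. The mean log2 level of 9 luteal markers was 2.68, 4.48, 4.63 and 2.89 in pioglitazone mice 1 to 4 and 3.35, 5.05, 4.61 and 3.54 in vehicle mice 1 to 4, so mice 1 and 4 of each group lay apart from mice 2 and 3. Acvr2b ran from 14.4 to 20.1 units in the 4 mice numbered 1 and 4 and from 11.6 to 12.1 in the 4 numbered 2 and 3. Over the 8 mice Acvr2b and the luteal markers had r = -0.88 and rho = -0.79 (exact permutation p = 0.00913 and 0.0279). Adjusted over the 10 members these p-values were 0.0913 and 0.240 (permutation). Of the 10 relations 1 passed unadjusted and 0 after adjustment. Amhr2 leaned the same way (r = -0.67, rho = -0.67), as did Inhba (r = -0.51, rho = -0.71). In the other members r ran from -0.11 (Inha) to 0.48 (Acvr1b). Since the mice fall into 2 sets of 4, these pooled coefficients do not show a relation within either set.

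Of the genes searched (13312 with a mean of at least 0.5), those most like Fst over the 8 arrays were Spink10, of the Kazal family of protease inhibitors (r = 0.96, rho = 0.95), Ntng2, a netrin-like membrane protein (r = 0.95, rho = 0.88), and Tmc5, of a family of transmembrane proteins (r = 0.95, rho = 0.95). Most like Inha were the WNT ligand gene Wnt9a (r = 0.97, rho = 0.95), Fanca, of the Fanconi DNA repair pathway (r = 0.93, rho = 0.93), and the transcriptional cofactor gene Eya2 (r = 0.92, rho = 0.88). These are the highest of many coefficients and are given as a description.

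Markers of granulosa cells, which make Inha, Inhba, Fst and Amh, were mostly above 0 in log2 fold change: 12 of 13 were positive, where 44.3% of all tested probes were, with a median of 0.30 against -0.034 over all probes, and 0 were called in limma. The smallest p was that of the gap junction gene Gja1, with a log2 fold change of 0.32 (limma, adjusted p = 0.837). Esr2, the estrogen receptor of granulosa cells, and Nr5a2, an orphan nuclear receptor of these cells, passed the unadjusted threshold with the replicate block, which called 3.40% of all probes higher and 5.20% lower. The sum of the 13 granulosa markers ran from 311 to 356 units in pioglitazone-treated and from 242 to 345 in vehicle-treated mice. Such sums weigh the brightest probes most. Here Kctd14 alone averaged 168 units in pioglitazone-treated and 169 in vehicle-treated mice. Of 9 luteal markers 8 were negative, with a median of -0.37, and 0 were called in limma, while the block called 4 as lower, namely Star, Cyp11a1 and Scarb1, genes of cholesterol supply and the first steps of steroid synthesis, and Akr1c18, which breaks down progesterone. Hsd3b1, an enzyme of progesterone synthesis, had a log2 fold change of -0.37 (limma, adjusted p = 0.844). The luteal sum ran from 367 to 540 units in pioglitazone-treated and from 442 to 628 in vehicle-treated mice. Hsd3b1 and Fdx1 weighed most in it, with means of 176 and 169 units in pioglitazone-treated and 221 and 189 in vehicle-treated mice. Of 6 macrophage markers 6 were negative, with a median of -0.25, 0 were called in limma, and C1qa, a complement gene, was lower with the block. The macrophage sum ran from 89.6 to 119 units in pioglitazone-treated and from 99.1 to 147 in vehicle-treated mice. Of 11 oocyte markers tested 1 was called, Padi6, an oocyte cytoplasmic protein gene, with means of 5.89 ± 0.17 in pioglitazone-treated and 7.14 ± 0.46 in vehicle-treated mice (SD, n = 4 each) and groups that did not overlap. Over all tested probes 3.53% were called lower and 3.13% were lower without overlap. The call of Padi6 was lost with the block. Theca and stroma markers (9) and adipocyte markers (6) had 0 calls either way, with medians of -0.053 and 0.020. The part of these markers in the values of Fst and Acvr2a was not tested.

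Around the members, 5 lists of related genes were counted in the same limma fit. Over all tested probes 1.97% were called higher and 3.53% lower, and with the block 3.40% and 5.20%. Of 10 other ligands of the TGF-β family tested, 0 were higher and 2 were lower at unadjusted p under 0.05, with a median of -0.071. Among these Inhbe, a further activin beta subunit, had values of 1.20, 1.19, 1.29 and 0.944 in pioglitazone mice 1 to 4, against 1.43, 1.48, 1.42 and 1.43 in vehicle mice 1 to 4. The groups did not overlap (log2 fold change -0.32, limma, adjusted p = 0.837), as in 3.13% of all tested probes on the lower side, and with the block the call was lost. The other is Nodal, which also signals through activin receptors, with means of 1.29 ± 0.12 in pioglitazone-treated and 1.69 ± 0.31 in vehicle-treated mice (SD, n = 4 each), close to the threshold. With the block Nodal and Tgfb1 were lower.

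Of 8 other receptors and co-receptors tested, 0 were called, 6 were negative and the median was -0.26. Tdgf1, a co-receptor of Nodal, had means of 10.7 ± 1.6 and Tgfbr2, the type II receptor of TGF-β, of 2.54 ± 0.23 in pioglitazone-treated mice, against 13.3 ± 1.1 and 3.15 ± 0.55 in vehicle-treated mice (SD, n = 4 each). Both missed the unadjusted threshold (limma, adjusted p = 0.837). The block called Bmpr1a, a type I receptor, as lower, although 3 of its 8 values lay under 0.2. Of 11 SMAD proteins and their regulators 0 were called either way, with a median of -0.067, and Smad2 and Smad3, which carry the activin signal, had log2 fold changes of -0.061 and 0.050. The smallest p-values of that list were those of Smad9 and Smad4, with log2 fold changes of -0.28 and 0.24. Of 11 other antagonists and processing proteases 0 were called, with a median of -0.050, and with the block 1, the protease gene Pcsk5, was lower. Of these antagonists Grem1 and Bambi had the smallest p-values, with log2 fold changes of 0.41 and -0.21.

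Of 12 regulators and targets in granulosa cells 1 was called, Sox9, a transcription factor that activates Amh in the fetal testis. Sox9 had values of 0.197, 0.246, 0.297 and 0.311 in pioglitazone mice 1 to 4, against 0.190, 0.186, 0.188 and 0.206 in vehicle mice 1 to 4. Of these 8 values 4 lay under 0.2, 3 of them in vehicle-treated mice. The vehicle mean of 0.193 was itself under the limit and Sox9 entered the test through the pioglitazone mean of 0.263 alone, so no fold is given and the call is not read as a difference. With the block 3 of the 12 were called higher, where the block called 3.40% of all probes higher. Of these 3, Sox9 is again not read as a difference. The other calls, Nr5a2 and Esr2, are those already given for the granulosa markers and add no further genes. Foxl2, a forkhead factor that keeps granulosa identity, had means of 10.6 ± 2.1 in pioglitazone-treated and 8.74 ± 2.55 in vehicle-treated mice (SD, n = 4 each, limma, adjusted p = 0.876). After adjustment over all probes limma called 0 genes of any of these lists.

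**Figure D5:**
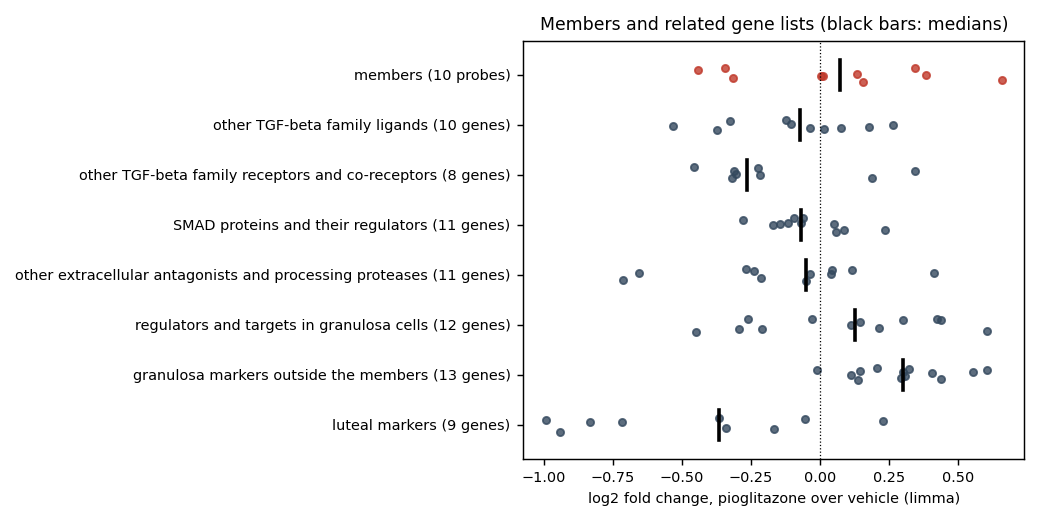
Log2 fold change of pioglitazone over vehicle (limma) of the 10 tested member probes, in red, and of the tested genes of 7 related lists. Points are probes or genes, spread vertically at random, and black bars are medians, which ran from -0.37 for luteal markers to 0.30 for granulosa markers, with 0.073 for the members.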

How the data were processed

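Ovarian RNA of 4 pioglitazone-treated and 4 vehicle-treated LY mice was measured on 1 array per mouse. The deposited values are linear intensity values that the authors background-corrected with CodeLink software and scaled to each slide median in GeneSpring (column medians 1.007 to 1.014). The methods also name a scaling of each gene, of which the values show no sign. Spots coded -9999 counted as missing.

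Arrays were rescaled to a median of 1 and floored at 0.05, and their log2 values entered limma 3.58.1 in R 4.3.3, with Benjamini-Hochberg adjustment over the probes that had 3 or more values per group and reached a group mean of 0.2 in either group. Single values were compared by two-sided exact permutation over the 70 assignments of mice. Annotation from the platform named 22296 probes, 21615 of them with a single gene, and left 13931 unnamed. A gene with several probes stood by its brightest one.

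Whether replicate numbers pair the mice was checked by correlating arrays after removal of group means. Same-numbered arrays had correlations of 0.515, 0.181, 0.274 and 0.232, all over 0.1 (although pioglitazone mouse 3 correlated best with vehicle mouse 2, 0.369), so the numbers were taken to pair the mice, from the data and not from the labels. The fit without the block was also run on simulated arrays with independent noise and added changes larger than those of Fst and Acvr2a. That run has no bearing on changes of their size or on the replicate pairs. The members and gene lists were chosen with earlier results of these data known. All member probes are named. Genes of a list could be named if called, or else if among the 2 with the smallest p, and not all of these are named. Smad2, Smad3, Foxl2 and genes called with the block only were chosen outside this rule after their values were seen. Alternatives were other floors, normalizations, filters, array weights, the methods' t-test, the replicate block and each mouse left out.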

Additional observations from a re-analysis of the deposited data

Results flagged for a closer look

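Of 44 groups of 4 mice checked, 4 held a mouse whose gap to the nearest other passed Dixon's 95% critical value as a share of the group's range, where chance gives about 1 in 20. The brighter Inhbb probe was at 0.021 in vehicle mouse 4 and between 0.134 and 0.149 in the other vehicle mice, all under the limit of 0.2. Inha minus Inhbb, with Inhbb raised to the floor of 0.05 in vehicle mouse 4, came to 9.71 on the log2 scale there, against 7.51 to 7.74 in the other vehicle mice. This value is set by the floor and is no measured level. Inha minus Inhba was -0.43 in vehicle mouse 1 and between 0.54 and 0.58 in the other vehicle mice. Theca and stroma markers summed to 573 units in pioglitazone mouse 1 and to between 327 and 356 in the other pioglitazone-treated mice. That sum lay inside the vehicle range of 241 to 659, whose highest value was also that of mouse 1. In this list Cyp17a1 was at 228 units in pioglitazone mouse 1 and 9.07 to 77.9 in the other pioglitazone-treated mice. It was at 297 in vehicle mouse 1.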

How the results depend on the processing

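Adjusted calls stayed at 0 in all 17 alternatives. Probes called at unadjusted p under 0.05 numbered 1685, 2635 with the replicate block, and from 737 (without pioglitazone mouse 4) to 2443 (without pioglitazone mouse 1) with 1 mouse left out. Member probes called numbered 2, and 1 with a floor of 0.01, cyclic loess normalization, no filter on dim probes or the methods' t-test, where the limma p of Fst was 0.0501, 0.0511 and 0.0541 and its unmoderated p was 0.0959. With 1 mouse left out they ran from 1 to 3. The replicate block kept the calls of Fst and Acvr2a and changed no other call of a member. The difference of Fst minus Fstl3 ran from 0.84 to 1.32 with 1 mouse left out, that of Inhba minus Fst from -0.61 to 0.12 and that of Inha minus Inhba from -0.38 to 0.37. Directions also turned for Acvr2b (-0.21 with array weights, -0.16 to 0.10 with 1 mouse left out), Amhr2 (-0.015 with array weights, -0.043 to 0.34) and Acvr1b (-0.072 to 0.059). Of the 45 pairs of members 4 passed an unadjusted p of 0.05, 1 with quantile normalization (Inha with Fst) and 2 without the 2 mice farthest on the x axis. Those 2, Inhbb with Acvr2b and Fstl3 with Acvr2b, are none of the 4, and Inhbb lay under the limit. The causes were not tested. Probes at less than 0.2, as both for Inhbb, allow no comparison. The paired test of 4 differences cannot go below an exact p of 0.125.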
